A study of Mus musculus with 2 samples.

Results

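The dual-specificity MAP kinase phosphatases are the enzymes that switch MAP kinases off. Their transcripts were compared between 2 libraries of inflammatory macrophages, 1 from wild-type (WT) mice and 1 from mice labelled as lacking SIRPα (SIRPα-KO). The members were named by symbol: Dusp5, Dusp6 and Dusp7, which act mainly on ERK; Dusp1, Dusp10 and Dusp16, which act mainly on the stress kinases JNK and p38; Dusp2 and Dusp4, nuclear enzymes of broader range; and Dusp3 and Dusp14, small enzymes that lack the kinase-binding domain of the others. All 10 were found among the 16263 genes listed for each library. Dusp1 also acts on ERK, and Dusp4 on both ERK and JNK, so the grouping follows the main substrates only.

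Macrophages of both genotypes, labelled C57BL/6, were grown from bone marrow for 5 days in medium conditioned with the growth factor M-CSF. All cultures then received 20 ng/ml interferon-γ together with 100 ng/ml lipopolysaccharide (LPS) for 6 h, with a reagent called mCD47.ex present. No untreated culture or culture without mCD47.ex was analysed here, so the values show levels after activation and not an induction. RNA was taken from the pooled cells of 5 mice for each genotype, which leaves 1 library per genotype, no replicate error and no p-value. The sources used here describe neither the Sirpa allele nor what mCD47.ex contains.

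SIRPα, found on macrophages and other myeloid cells, dampens activation and recruits tyrosine phosphatases when it binds CD47. LPS activates the MAP kinases ERK, JNK and p38 through kinase cascades, each kinase being switched on by phosphate on a threonine and a tyrosine of its activation loop. Dual-specificity MAP kinase phosphatases remove both phosphates. Many of their genes are themselves induced by the kinases they act on, which makes them feedback inhibitors, and Dusp1 in particular is known to limit p38 activity and cytokine output of LPS-treated macrophages.

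Of the 10 members, Dusp5 was higher and Dusp4 lower in the SIRPα-KO library by at least 2-fold, and the other 8 were not called. Dusp4 had the most lopsided values, with 21.65 FPKM in WT cells against 0.37 FPKM in SIRPα-KO cells. The stress kinase-directed members Dusp1 and Dusp16 were lower in SIRPα-KO and Dusp2 was higher, all 3 short of 2-fold. FPKM count fragments relative to transcript length and to the mapped total, so levels can be compared between genes. A gene was called when FPKM + 1 differed at least 2-fold and at least 1 library reached 1 FPKM, a minimum that 8 of the 10 members and 10092 genes in all met. Of those genes 7.74% were called, 3.43% higher and 4.31% lower in SIRPα-KO. The members' count, 1 higher and 1 lower among the 8 kept, is too small to be set apart from that background. Fewer cells of a type and less RNA per cell cannot be told apart in such mixed samples.

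**Figure D1:**
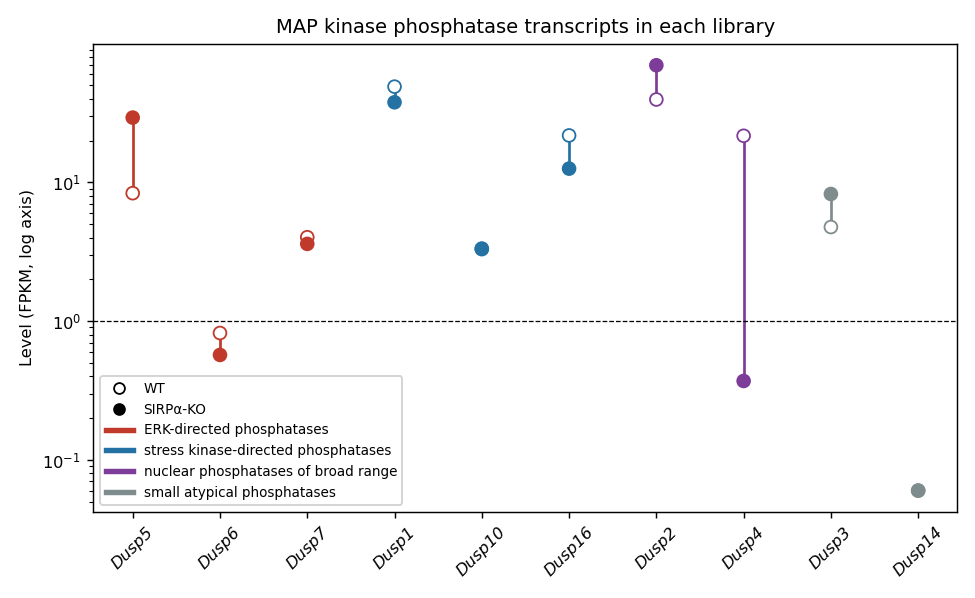
Level of each member in FPKM (log axis) in the WT library (open circles) and the SIRPα-KO library (filled circles), coloured by group, with a dashed line at the minimum of 1 FPKM. Dusp4 spans from 21.65 to 0.37 FPKM, Dusp5 moves the other way from 8.35 to 29.28 FPKM, and Dusp6 and Dusp14 lie under the line in both libraries.

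Stretches of DNA before the start of 2 member genes are shown because they hold the matches found near the member with the higher call and near the most abundant member of the WT library. They come from RefSeq (GRCm38.p6) and cover the 250 bases before the annotated start, 5′ to 3′ on the gene's strand, with motif matches in capitals. In the Dusp5 stretch (chr19:53528895-53529144, + strand) the capitals mark adjacent CArG boxes, the element bound by serum response factor, and in the Dusp1 stretch (chr17:26508473-26508722, − strand) they mark a cyclic AMP response element (CRE), TGACGTCA.
Dusp5: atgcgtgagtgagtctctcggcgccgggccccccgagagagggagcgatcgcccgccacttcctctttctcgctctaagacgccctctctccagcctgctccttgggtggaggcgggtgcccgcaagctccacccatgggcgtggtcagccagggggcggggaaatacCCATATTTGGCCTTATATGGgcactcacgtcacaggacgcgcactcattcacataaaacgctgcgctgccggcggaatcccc
Dusp1: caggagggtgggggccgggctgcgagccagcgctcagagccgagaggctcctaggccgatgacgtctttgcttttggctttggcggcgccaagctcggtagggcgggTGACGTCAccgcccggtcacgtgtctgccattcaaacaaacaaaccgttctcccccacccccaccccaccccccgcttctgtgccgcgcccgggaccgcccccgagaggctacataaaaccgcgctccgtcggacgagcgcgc

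The RefSeq promoter table matched 9 of the 10 members by symbol, all but Dusp4. Of the 9 upstream stretches, 1 held a CArG box, that of Dusp5, where the matches CCATATTTGG and CCTTATATGG begin 82 and 72 bases before the start. A CArG box occurred in 1.47% of the 32851 promoter stretches of the same length. The CRE occurred in 1.55% of them and in 1 member, Dusp1. The interferon-γ-activated site (GAS), TTCNNNGAA, occurred in 7.02% and in 1 member, Dusp14. The AP-1 site TGANTCA (6.75% of all stretches) and an NF-κB site (3.9%) had no match in the 9. Both strands were searched and no matches of different motifs overlapped. A match is a description of these letters and shows no binding.

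Among the ERK-directed phosphatases, Dusp5, a nuclear enzyme selective for ERK (gene number 240672), was at 8.35 FPKM in the WT library and 29.28 FPKM in the SIRPα-KO library. The SIRPα-KO value was 3.51-fold the WT value, a log2 ratio of 1.70 on the FPKM + 1 scale. About 231 and 797 reads lay behind these values, and the exact binomial (Clopper-Pearson) 95% interval of the fold was 3.03 to 4.08. That interval covers counting error only, and the read numbers are themselves estimates from transcript length and estimated depth. The gap was therefore wider than counting error, while the variation between mice or cultures was not measured. Dusp5 moved from percentile 54.0 of the kept genes in WT to percentile 79.1 in SIRPα-KO. Of the 50-base words of its transcript, 20.5% lie on the opposite strand of an annotated antisense gene, AC137853.2. The use of strand is not given in the sources used here, so reads of the 2 genes within that shared part cannot be told apart.

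Dusp6 and Dusp7, the cytoplasmic ERK-selective enzymes, were low in both libraries. Dusp7 was at 4.02 FPKM in WT cells against 3.6 FPKM in SIRPα-KO cells, and the interval of its fold, 0.697 to 1.14, included equality. Dusp6, a widely used readout of ERK activity, was at 0.82 and 0.57 FPKM, about 26 and 18 reads, under the minimum in both libraries. Its interval, 0.364 to 1.34, was too wide to show a difference at this depth. The summed level of the 3 ERK-directed members was 13.2 FPKM in the WT library and 33.5 FPKM in the SIRPα-KO library, and Dusp5 alone supplied the increase, since both others were lower in SIRPα-KO. The median log2 ratio of the 2 members kept was 0.78, against 0.06 over all kept genes, and with all 3 members it was -0.13.

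The stress kinase-directed members had no called gene. Dusp1, which removes phosphate from p38 and JNK in the nucleus, was the most abundant member in WT at 48.94 FPKM and was at 37.74 FPKM in SIRPα-KO. The SIRPα-KO value was 0.771 of the WT value (interval 0.703 to 0.845), a log2 ratio of -0.37. Exons of Ergic1 overlap those of Dusp1 by 11 bases on the opposite strand, too few to share a 50-base word (0%). Dusp16, which acts mainly on JNK, was at 21.77 FPKM in WT cells against 12.55 FPKM in SIRPα-KO cells. Its WT value was 1.73-fold the SIRPα-KO value (interval 1.57 to 1.92), a log2 ratio of -0.75.

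Dusp10, which acts on p38 and JNK and restrains innate cytokine production, was at 3.33 and 3.3 FPKM. Its fold of 0.991 had an interval of 0.744 to 1.31, which included equality, so the reads were compatible with any fold in that range. The 3 members together were at 74.0 FPKM in the WT library and 53.6 FPKM in the SIRPα-KO library, and their median log2 ratio was -0.37. Dusp1 and Dusp16 were thus lower in SIRPα-KO beyond counting error, and Dusp10 was not.

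The nuclear phosphatases of broad range diverged. Dusp4, which acts on ERK and JNK (gene number 319520), was at 21.65 FPKM in WT cells against 0.37 FPKM in SIRPα-KO cells, from about 664 and 11 reads. The WT value was 58.5-fold the SIRPα-KO value, with a counting interval of 32.9 to 119, and the log2 ratio was -4.05 on the FPKM + 1 scale, which understates the difference of so low a value. Among the kept genes it stood at percentile 74.6 in WT and at percentile 0.986 in SIRPα-KO. Dusp4 was kept through its WT value alone. Genes under 1 FPKM in both libraries are left out, so the low SIRPα-KO percentile follows partly from that minimum. Another annotated gene shared 0% of the 50-base words of Dusp4, on either strand.

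Dusp2, an enzyme abundant in activated leukocytes, was at 39.54 FPKM in the WT library and 69.79 FPKM in the SIRPα-KO library. The SIRPα-KO value was 1.77-fold the WT value (interval 1.61 to 1.94), a log2 ratio of 0.80. The order of the 2 most abundant members changed with it: Dusp1 ranked first and Dusp2 second in WT, and Dusp2 first and Dusp1 second in SIRPα-KO. The level of Dusp2 was 0.808 of that of Dusp1 in WT and 1.85-fold that of Dusp1 in SIRPα-KO.

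Of the small atypical members, Dusp3, which acts on ERK and JNK, was at 4.76 FPKM in WT cells against 8.24 FPKM in SIRPα-KO cells, a 1.73-fold higher value (interval 1.46 to 2.05) and a log2 ratio of 0.68. Of its words 11.1% lie on the opposite strand of other genes and 0.419% are shared on the same strand. Dusp14, best known in T cells, was at 0.06 FPKM in both libraries, a value that stands for about 1 read, so no fold is given. The transcript was thus at the limit of detection in both libraries.

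**Figure D2:**
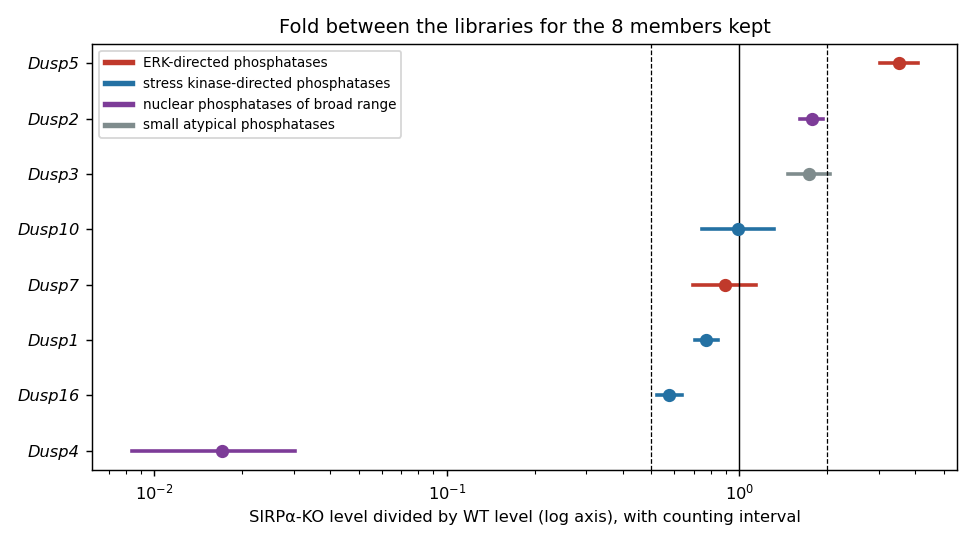
Level in SIRPα-KO divided by the level in WT (log axis) for the 8 members kept, with exact binomial 95% intervals that cover counting error only and dashed lines at 2-fold in either direction. Dusp4 lies far to the left at 0.0171 and Dusp5 alone lies beyond 2-fold to the right, at 3.51.

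The summed level of the 10 members differed little, at 153 FPKM in the WT library and 166 FPKM in the SIRPα-KO library, while its makeup differed. In WT Dusp2 supplied 25.8% of the sum, against 42.2% in SIRPα-KO, and Dusp5 supplied 5.45% against 17.7%. Dusp4 supplied 14.1% in WT and 0.224% in SIRPα-KO, Dusp16 14.2% and 7.58%, and Dusp1 31.9% and 22.8%. By group, the ERK-directed members made up 8.61% of the WT sum and 20.2% of the SIRPα-KO sum, and the stress kinase-directed members 48.3% and 32.4%. The share of the nuclear pair Dusp2 and Dusp4 was nearly level, 39.9% and 42.4%, because their values went opposite ways.

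**Figure D3:**
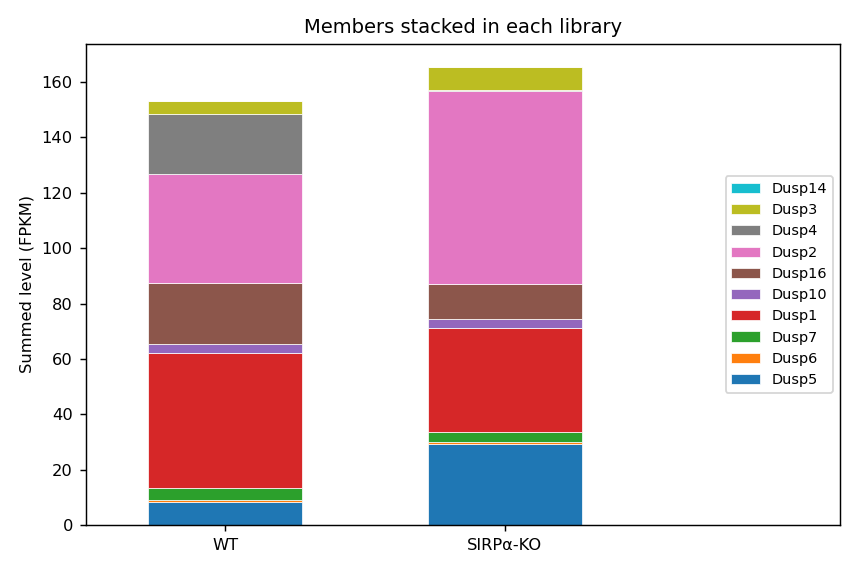
Levels of the members stacked to their summed FPKM in each library. The totals are 153 FPKM in WT cells against 166 FPKM in SIRPα-KO cells, and the Dusp4 block seen in WT is too thin to see in SIRPα-KO.

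The genes next to the called members were read as a check on position, and were named by their place in RefSeq order among the listed genes. Directly beside Dusp5, 5830416P10Rik was under the minimum, at 0.12 and 0.15 FPKM. Nutf2-ps1 on the other side was at 21.49 FPKM in the WT library and 25.37 FPKM in the SIRPα-KO library, a log2 ratio of 0.23. Beyond them, Smndc1, a splicing factor, had a log2 ratio of 0.31 and Smc3, a cohesin subunit, one of 0.34. Next to Dusp4 on one side, Tnks, a poly-ADP-ribosylating enzyme, was at 12.57 FPKM in the WT library and 12.03 FPKM in the SIRPα-KO library, and the gene beyond it, Ppp1r3b, a glycogen-targeting subunit of protein phosphatase, was called lower at 3.48 and 0.77 FPKM. On the other side B930018H19Rik had 0.17 FPKM in WT cells and was listed at 0 in SIRPα-KO cells, and Tmem66 was at 33.52 and 24.63 FPKM. The nearest expressed neighbours of Dusp4 and Dusp5 thus lay within 2-fold. Beside Dusp2, which was not called, Stard7 was also higher in SIRPα-KO, at 8.87 and 17.7 FPKM, a log2 ratio of 0.92. Tmem127 beyond it had a log2 ratio of 0.09, and Astl and Adra2b on the other side were under the minimum. Whether position bears on the Dusp2 value was not tested.

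Other dual-specificity phosphatases were read from fixed lists. Dusp8 (0.41 and 0.52 FPKM) and Dusp9 (0.1 FPKM and listed at 0), which complete the classical MAP kinase phosphatases, were under the minimum in both libraries. Of 15 other atypical members of the superfamily, 11 were listed and 6 kept, with 0 higher and 0 lower calls. Their median log2 ratio was 0.54, with 5 of 6 above 0. Dusp11, an RNA phosphatase and the most abundant of them, was at 13.03 FPKM in WT cells against 16.93 FPKM in SIRPα-KO cells. Styx, a catalytically inactive relative that binds ERK, was at 3.31 and 6.04 FPKM and was named after its values were seen. Of 10 other phosphatases that act on MAP kinases 8 were kept and 0 called, with a median of 0.10, and Ppp2ca, the catalytic subunit of protein phosphatase 2A, was at 133.72 and 129.78 FPKM.

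The kinase lists are given by their counts, which are too small to be set apart from the 7.74% called among all kept genes. Of 13 MAP kinases 10 were listed and 8 kept, with 0 higher and 0 lower and a median log2 ratio of -0.05. Mapk6, an atypical MAP kinase and the most abundant of them, was at 66.57 FPKM in the WT library and 49.66 FPKM in the SIRPα-KO library. Mapk3, which encodes ERK1 and was named after its values were seen, was at 56.73 and 29.45 FPKM, just short of 2-fold. Mapk14, which encodes the main p38 kinase of macrophages, was named although not the most abundant, and was at 3.6 and 3.45 FPKM.

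Upstream, 6 of 7 MAP kinase kinases were kept with 0 called and a median of 0.01, and Map2k1, the ERK activator MEK1, was at 122.62 FPKM in WT cells against 97.58 FPKM in SIRPα-KO cells. Of 15 MAP3 and Raf kinases 13 were kept with 0 called and a median of 0.06. Map3k8, which links LPS signalling to ERK in macrophages, was at 26.07 and 32.26 FPKM. Downstream, all 10 MAP kinase-activated kinases were kept, with 0 higher and 1 lower and a median of -0.22. The lower one was Mknk2, a kinase of the translation factor eIF4E, at 11.97 and 5.06 FPKM.

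Transcripts of genes listed as responsive to the kinases went both ways. Kinase activity was not measured, and the lists were not tested as readouts of it. Of 15 ERK-responsive immediate early genes 11 were kept, with 1 higher, 1 lower and a median of -0.12. The higher one was Phlda1 (3.96 FPKM in WT cells, 11.74 in SIRPα-KO cells), while the lower one was Egr2, a zinc finger transcription factor (4.25 and 1.38). Of 8 Sprouty, Spred and related inhibitors of receptor signalling to ERK 4 were kept, with 0 higher and 1 lower, Spred3, at 1.98 and 0.13 FPKM, and the median was -0.36. Of 13 transcription factors listed as responsive to JNK and p38 all were kept, with 0 higher, 1 lower and a median of 0.06. That gene was Elk3, a partner of serum response factor at CArG boxes, at 20.42 FPKM in the WT library and 1.96 FPKM in the SIRPα-KO library, a log2 ratio of -2.86.

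**Figure D4:**
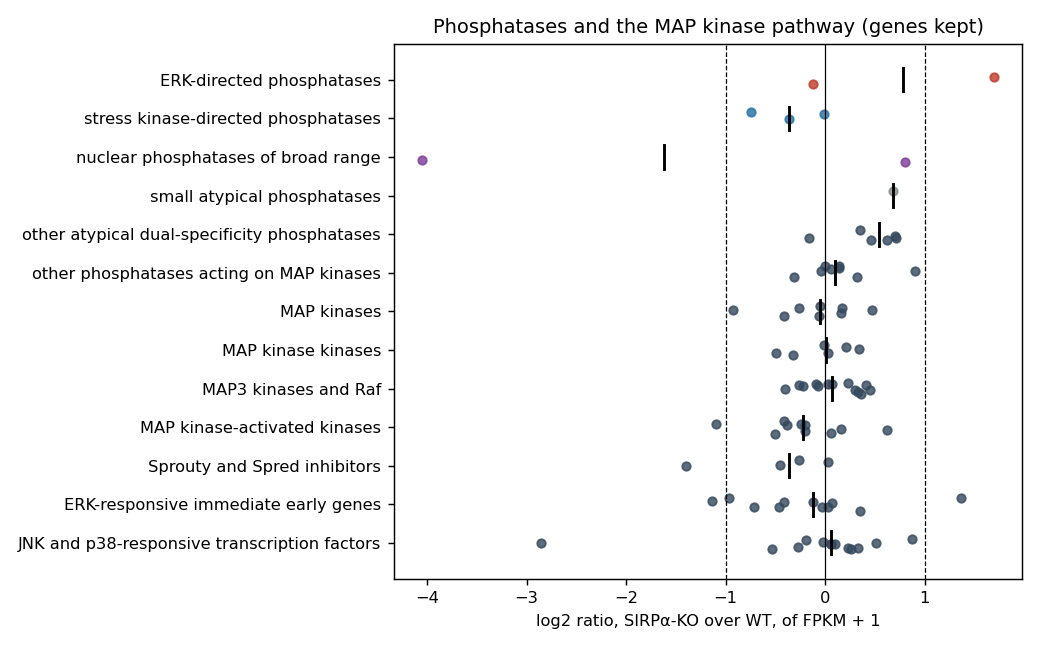
Log2 ratio of FPKM + 1, SIRPα-KO over WT, of every kept gene in the phosphatase groups and in the lists of kinases and responsive genes, with the list median as a black bar and dashed lines at 2-fold. Dusp4 at -4.05, Elk3 at -2.86 and Dusp5 at 1.70 lie farthest out.

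Sequencing depth, read off the step between low values, was near 11200000 reads for WT and 11000000 for SIRPα-KO. Sirpa was at 153.87 FPKM in the WT library and 71.47 FPKM in the library labelled SIRPα-KO, so its transcript was lower but present. For comparison with the marker counts that follow, 3.43% of all kept genes were higher and 4.31% lower in SIRPα-KO. No marker list was tested against these shares. All 9 macrophage markers were kept in the libraries, with 0 higher and 1 lower (Csf1r, 247.59 and 109.8 FPKM). Their summed level was 11120 FPKM in WT cells against 10861 FPKM in SIRPα-KO cells, most of it from Lyz2 (7106.27 and 7207.7). Of the 9, 3 had a ratio above 0 and 6 below, with a median log2 ratio of -0.12. Of 8 neutrophil markers kept 0 were higher and 5 lower, with sums over the 9 listed markers of 424 and 195 FPKM and none listed at 0. Elane (3.36 and 0.5 FPKM), Camp (5.59 and 1.41) and Ngp (68.78 and 24.71) had the largest ratios. Of the 8 kept 7 had a ratio below 0 and 1 above, Mpo, at 2.38 and 3.34 FPKM. Of 7 dendritic cell markers kept 3 were higher, Ccl22 (11.19 and 139.11 FPKM), Ccr7 (6.93 and 23.81) and Dpp4 (1.32 and 4.95), and 1 lower, Itgax (27.73 and 12.08). The sums over all 9 dendritic cell markers were 57.4 and 188 FPKM, and none was listed at 0. Ccl22 alone supplied most of the SIRPα-KO sum. Of the 7 kept 3 had a ratio above 0 and 4 below, with a median log2 ratio of -0.007. T and NK cell, B cell and stromal markers had 0 called genes. Of 3 T and NK cell markers kept 2 had a ratio above 0, with Cd3d, the most abundant, at 6.29 and 6.79 FPKM. Of 4 B cell markers kept 3 had a ratio below 0, with a median log2 ratio of -0.58 and Blnk, the most abundant, at 40.41 and 42.07 FPKM. Of 7 stromal and endothelial markers kept 4 had a ratio below 0, with a median of -0.16 and Kdr, the most abundant, at 12.27 and 19.66 FPKM. Cd3g was listed at 0 in both libraries, as were Cd3e, Ncr1 and Nkg7 in WT and Klrb1c in SIRPα-KO. Malat1, a nuclear RNA, was at 83.7 and 32.93 FPKM. Xist, expressed from the inactive X chromosome of females, was at 47.54 and 0.91 FPKM, and the Y-linked Ddx3y was listed at 0 for WT and at 11.56 FPKM for SIRPα-KO, so sex and genotype cannot be told apart. The part of these differences in the phosphatase values was not tested.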

How the data were processed

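The authors deposited 1 table per library with a value for each gene, taken to be FPKM. The tables name no unit; it was inferred because steps between low values scale with transcript length and sums differ between libraries. Per the submitters' processing notes the mm9 genome, R 3.3.3 and DESeq2 were used, with no role given; aligner, counting program and use of strand: not given in the sources used here. Depth was estimated as the value at which low FPKM of genes with 1 transcript length (GENCODE M21) gave most whole reads: 63.9% of 1763 WT values and 62.2% of 1816 SIRPα-KO values fell no more than 0.15 from a whole read, against 31.2% and 28.8% with lengths shuffled. Too few values came out whole for a count test. Ratios used a pseudocount of 1, a minimum of 1 FPKM in at least 1 library and a 2-fold limit (Python 3.11.15, scipy 1.17.1); the step was tested on simulated data. Fold intervals treated estimated reads, rounded to whole numbers, as counts, so they are approximate and serve as a description only. Members and lists were chosen with earlier results of these data known. The text names all members, up to 3 called genes per direction of each list by size of ratio, the most abundant gene of lists with no call, Sirpa, and others as stated. Genes of a list not in the tables were not analysed here. Alternatives were other pseudocounts, filters, fold limits, scalings and groupings. A withheld item is not reported here.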

Additional observations from a re-analysis of the deposited data

How the results depend on the processing

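Dusp5 was called higher and Dusp4 lower under all 8 alternative settings of pseudocount, filter, scaling and fold limit, and no other member was called except with a 1.5-fold limit. That limit called 5 of the 8 members kept, adding Dusp2, Dusp3 and Dusp16, and 2138 genes in all, 21.2% of those kept. The members are few, and whether their count differs from that share was not tested. The number of genes called, 781, was 1266 with a pseudocount of 0.1, 334 with a pseudocount of 5 and 270 with a 3-fold limit. The log2 ratio of Dusp4 ranged from -5.53 to -2.31 and that of Dusp5 from 1.36 to 1.80 over pseudocounts and scalings. The median of the ERK-directed members rests on few genes. It was -0.13 with no filter, which brings in Dusp6, and -0.13 with Dusp4 added. It was 1.70 with a minimum of 5 FPKM, which leaves Dusp5 alone. That minimum moved the stress kinase-directed median from -0.37 to -0.56 by leaving out Dusp10. No paired analysis was possible because each genotype has 1 library.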
